A study of Mus musculus with 15 samples.

Results

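The genes described here are 35 genes of meningeal fibroblasts and the extracellular matrix, taken as a list by name. A gene was a member if a probe of the mouse array carried exactly its symbol. Of the 35 names, 34 were found among the 27962 gene names of the array, and all 34 passed the filter on dim probes, which kept 26117 genes. The remaining name, Slc47a1, is taken up below under the older name that the array uses. Where a gene had several probes, the probe with the highest mean over the 15 arrays was read.

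The study measured RNA from the whole hippocampus of male C57BL/6J mice during extinction of contextual fear, on one-colour Agilent arrays with 1 mouse per array. Control mice (5 arrays) met the conditioning box without any shock according to the design text, while their source labels call them naive. E1 mice (5 arrays) had received the shock in the box and were sampled 1 h after their first return to it without shock. ELF mice (5 arrays) had been returned every 24 h and were sampled 1 h after the low-freezing trial, which was trial 5. All mice were of the same strain with no transgene or drug named in the labels, and no ages were given.

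Fibroblasts of the pia and arachnoid line the surface of the brain and follow its larger vessels inward. They secrete fibrillar collagens, small proteoglycans and glycoproteins, and carry transporters that move organic ions and amino acids between the cerebrospinal fluid and blood. Several of the listed genes are also made by other cells: the type IV collagen chains, for example, are laid down by endothelial and mural cells as the scaffold of vascular basement membranes. In a dissected hippocampus these genes report how much meningeal and vascular tissue came along as well as what that tissue expressed. In such bulk RNA, fewer cells of a type and less RNA per cell cannot be told apart.

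Values are log2 of the processed spot intensity minus the log2 of the same array's 75th percentile, so that 0 is the brightness of the 75th percentile. Differences are on the same log2 scale and carry the standard error (SE) of a limma fit over all 15 arrays. Adjusted p-values are from limma with Benjamini-Hochberg adjustment over all 26117 genes, two-sided, and a gene was called at an adjusted p under 0.05. Of the 34 genes, 32 were well above background on all 15 arrays. Col15a1 missed this on 1 E1 array, and Lox was well above background on 5 control, 2 E1 and 3 ELF arrays. All 10 measured markers of hippocampal neurons were well above background on every array, and their mean deviation stayed between -0.23 and 0.29.

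The arrays differed in brightness, with a 75th percentile between 1445 and 2929 and between 83.5% (ELF 4) and 97.2% (ELF 5) of spots well above background. They lay on 4 slides that were nearly aligned with the groups. Slide 1 held control 1 to 4, slide 2 held control 5 with E1 1 to 3, slide 3 held E1 4 and 5 with ELF 3 and 4, and slide 4 held ELF 1, 2 and 5. No slide held both control and ELF arrays. On ELF 3 the choroid plexus genes lay far below all other arrays, and ELF 4 was the lowest array for 32.5% of all genes, so the main counts are also given without both arrays. Fos and Arc, which neurons switch on soon after activity, were higher in E1 than in control by 1.47 (adjusted p = 0.0351) and 1.16 (adjusted p = 0.00998). The design text calls the 5 samples of each group biological replicates.

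The results turn on Col4a1 and Col4a2, which start close together on opposite strands of chromosome 8. In the RefSeq promoter table (GRCm38.p6) the Col4a1 start site is at 11312826 on the minus strand. The Col4a2 start site is at 11312805 on the plus strand, 21 bases apart. By these coordinates each transcript runs through the start site of the other, so the transcripts overlap at their beginnings. The stretch chr8:11312801-11312830 is shown on both strands because both transcripts begin inside it, and capitals mark the bases from one start site to the other.
Col4a1, minus strand: ccccTTGGAGACGCCGCCCGCGCACTgccg
Col4a2, plus strand: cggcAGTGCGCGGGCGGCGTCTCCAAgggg
The table's windows of the pair, 250 bases before to 50 after each start, share 78 bases at chr8:11312777-11312854, of which 73.1% are G or C. The GC box letters GGGCGG stand in that shared stretch and are therefore in both windows.

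Promoter windows in the RefSeq table were found for 25 of the 35 genes, with 31 windows in all. Cdh1, Col1a1, Col5a2, Crabp2, Dcn, Fn1, Lox, Lum, Mgp and Slc47a1 had none. Both strands were searched for 3 short motifs. CCAAT, the letters of the CCAAT box, was in 12 of the 31 windows (38.7%), against 37.4% of all 32851 windows of the table. GGGCGG was in 15 (48.4%), against 35.7%. TATAAA, the letters of the TATA box, was in 2 (6.5%), those of Col3a1 and Ogn, against 13.6%. A match describes letters and says nothing of binding.

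The upstream stretches of 2 genes of fibrillar collagen chains are shown because they hold different motifs, in capitals: GGGCGG and CCAAT before Col1a2, and TATAAA before Col3a1. They are the 250 bases before each start site on the plus strand, chr6:4505368-4505617 for Col1a2 and chr1:45311288-45311537 for Col3a1, from RefSeq on GRCm38.p6.
Col1a2: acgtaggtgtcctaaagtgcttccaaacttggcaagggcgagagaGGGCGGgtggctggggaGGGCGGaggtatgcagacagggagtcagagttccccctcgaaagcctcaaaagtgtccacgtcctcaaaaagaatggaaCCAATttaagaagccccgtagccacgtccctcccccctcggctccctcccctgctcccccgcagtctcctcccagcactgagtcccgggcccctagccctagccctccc
Col3a1: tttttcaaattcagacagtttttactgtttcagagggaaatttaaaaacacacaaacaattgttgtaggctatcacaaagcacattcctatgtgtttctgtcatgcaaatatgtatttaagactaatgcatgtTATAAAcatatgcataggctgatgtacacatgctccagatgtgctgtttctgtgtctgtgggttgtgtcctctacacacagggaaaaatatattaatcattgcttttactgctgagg
In Col1a2 the CCAAT letters stood 109 to 105 bases before the start site, and in Col3a1 the TATAAA letters stood 117 to 112 bases before it.

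The collagen repeat itself is visible in 1 of the 55 probes of these genes. This 60-base probe of Col5a1, which the array design places at chr2:27994034-27996457 of mm7 on the plus strand, spans 2424 bases of genome. It reads through 19 whole codons, of which 6, in capitals, are glycine codons (GGN), each followed by 2 other codons or by the probe's end.
Col5a1 probe: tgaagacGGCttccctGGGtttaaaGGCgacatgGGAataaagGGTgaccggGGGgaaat
Glycine repeated at this spacing is what lets 3 collagen chains wind into a triple helix.

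After the low-freezing trial, 2 of the 34 genes passed the test against control, both lower, and none higher. Over all genes tested, 2.1% were called in this comparison, 0.651% lower and 1.45% higher. The called genes were Col4a1 and Col4a2, the chains that form the type IV collagen network of basement membranes. They were also the only ones of the 34 whose groups did not overlap, against 2.23% of all genes with every ELF array below every control array and 2.5% with every ELF array above.

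Col4a2 (probe at chr8:11416851-11416910, mm7) read 0.30, 0.29, 0.33, 0.39 and 0.52 on control 1 to 5. It read 0.18, 0.13, 0.31, 0.26 and -0.09 on E1 1 to 5, and -0.19, -0.32, -0.34, -0.47 and 0.02 on ELF 1 to 5. Every ELF array was below every control array, ELF 5 was the highest of its group, and the E1 arrays reached from ELF levels up to the lower control arrays. Control arrays averaged 0.37 ± 0.10, E1 arrays 0.16 ± 0.15 and ELF arrays -0.26 ± 0.19 (mean ± SD, n = 5 each). ELF differed from control by -0.63 (SE 0.10, 95% interval -0.85 to -0.41, adjusted p = 0.02), a 1.54-fold lower intensity. Against E1 the difference was -0.42 (SE 0.10, adjusted p = 0.263), and between E1 and control it was -0.21 (adjusted p = 0.416).

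Col4a1 (probe at chr8:11167020-11167079, mm7) read -0.32, -0.77, -0.63, -0.49 and -0.56 on control 1 to 5. It read -0.77, -0.89, -0.75, -0.71 and -1.10 in E1, and -1.25, -1.15, -0.94, -1.05 and -0.92 in ELF. The ELF arrays all lay below the lowest control array, which was control 2, and the E1 arrays overlapped with both other groups. ELF differed from control by -0.51 (SE 0.10, 95% interval -0.73 to -0.28, adjusted p = 0.0328), a 1.42-fold lower intensity. E1 differed from control by -0.29 (SE 0.10, adjusted p = 0.248) and ELF from E1 by -0.22 (adjusted p = 0.517), neither past the threshold.

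**Figure D1:**
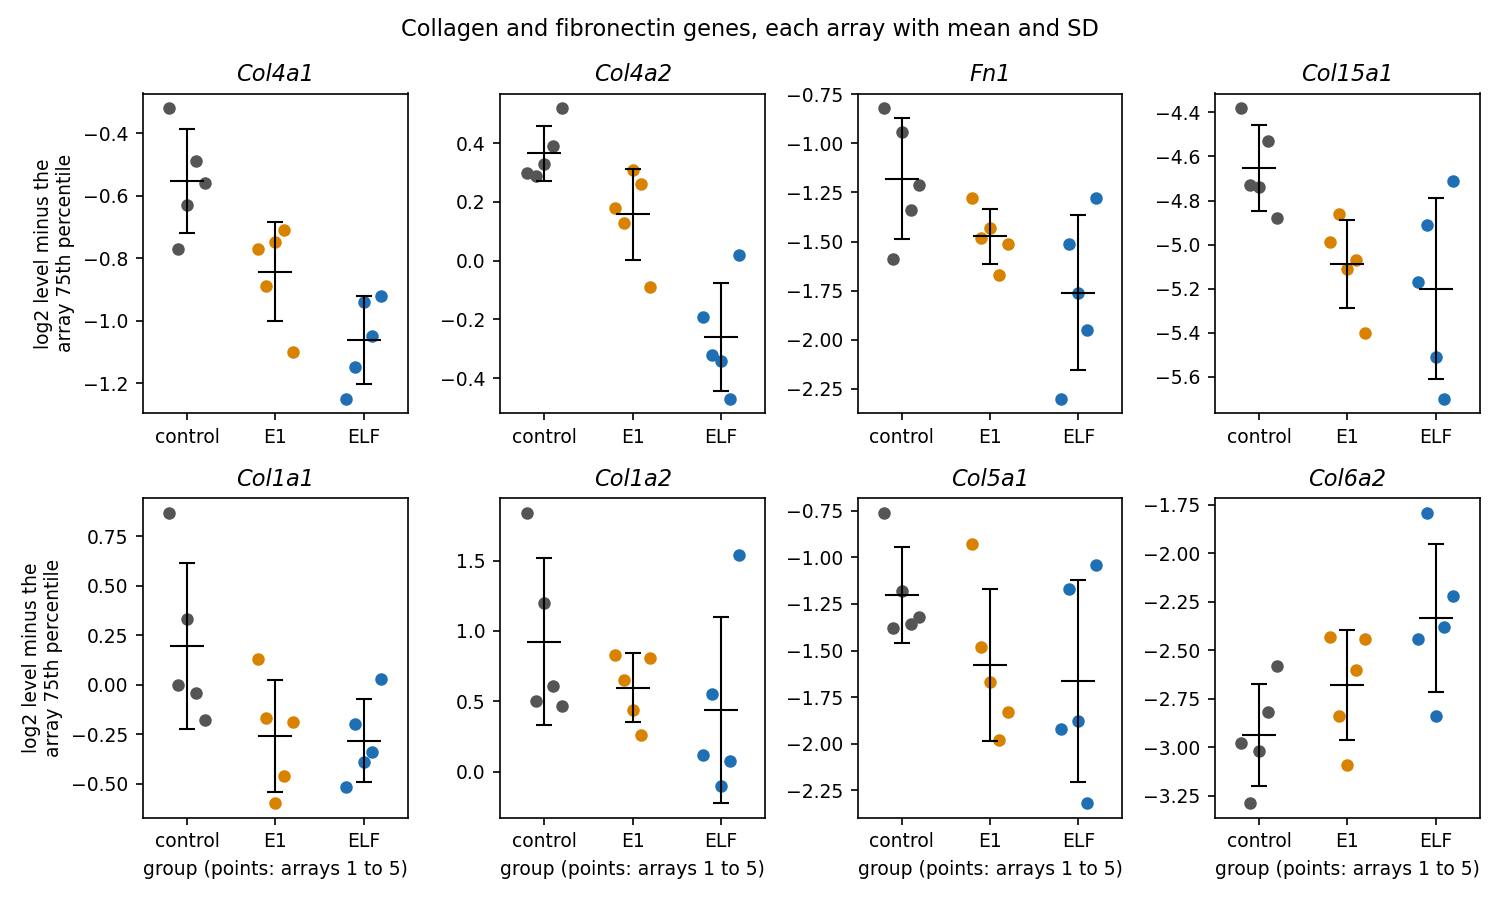
Log2 intensity relative to the array's 75th percentile (vertical axis) of collagen genes and Fn1 in control, E1 and ELF, with 1 point per array and the group mean ± SD (n = 5). Col4a1 and Col4a2 are the 2 whose ELF and control arrays do not overlap.

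The array carries a second kept probe for each chain. That of Col4a2 differed between ELF and control by -0.52 (adjusted p = 0.0301 in a fit of all kept probes). It read -1.34, -1.26, -1.21, -1.19 and -1.18 in control and -1.69, -2.04, -1.60, -1.86 and -1.58 in ELF, again without overlap. That of Col4a1 differed by -0.07 (adjusted p = 0.766), with -1.84, -2.06, -1.93, -1.86 and -1.64 in control and -1.93, -1.99, -1.56, -2.37 and -1.86 in ELF, which overlapped. The lower Col4a1 value was therefore measured by 1 of its 2 probes, and the lower Col4a2 value by both.

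Of the vessel wall, 13 of 15 measured endothelial genes and 7 of 11 mural genes were below control in ELF as well. Over all genes 35.2% were below control and 0.651% were called lower. Of 15 measured endothelial genes, 8 were called lower in ELF, their median difference was -0.74, and their mean deviation per array was 0.20 to 0.86 in control against -0.41 to -0.20 in ELF, without overlap. In E1 it was -0.22 to -0.07, which lay below control too. Flt1, a VEGF receptor of endothelium, fell by 1.14 (adjusted p = 0.0287), and Cldn5, the tight junction protein of brain endothelium, by 0.74 (adjusted p = 0.0287). Pecam1, another endothelial surface protein, differed by -0.29 (adjusted p = 0.154). Of 11 mural genes 2 were called lower, among them Rgs5, a pericyte regulator of G-protein signalling, which fell by 0.65 (adjusted p = 0.0409), while Pdgfrb and Acta2 differed by -0.15 and 0.13. The mean of the choroid plexus genes, given below, was also lower on all ELF arrays than on all control arrays. The part of these tissues in the type IV collagen result was not tested.

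The type IV calls depended on the slides and on single arrays. ELF and control shared no slide, so slide and group cannot be told apart directly. With slide as a fixed block, which links the groups through E1, the difference was -0.81 (adjusted p = 0.092) for Col4a2 and -0.33 (adjusted p = 0.454) for Col4a1. Within slide 2 E1 differed from control by -0.31 for Col4a2 and -0.24 for Col4a1, and within slide 3 ELF differed from E1 by -0.49 and -0.09. When each array was left out in turn of the 10 compared, Col4a2 passed in 8 fits, with differences from -0.70 to -0.57, and missed the threshold without control 2 (adjusted p = 0.0603) and without control 3 (adjusted p = 0.0764). Col4a1 passed in 4 fits, with differences from -0.56 to -0.45. It missed the threshold without control 1, 2, 3 or 4 or ELF 1 or 2 (adjusted p from 0.0557 to 0.105). The E1 arrays share in the estimate of the spread, and Col4a1 also missed it without E1 1 (adjusted p = 0.0502) or E1 2 (adjusted p = 0.0504). Without ELF 3 and ELF 4 both were called, in a fit where the remaining ELF arrays are those of slide 4 alone.

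**Figure D2:**
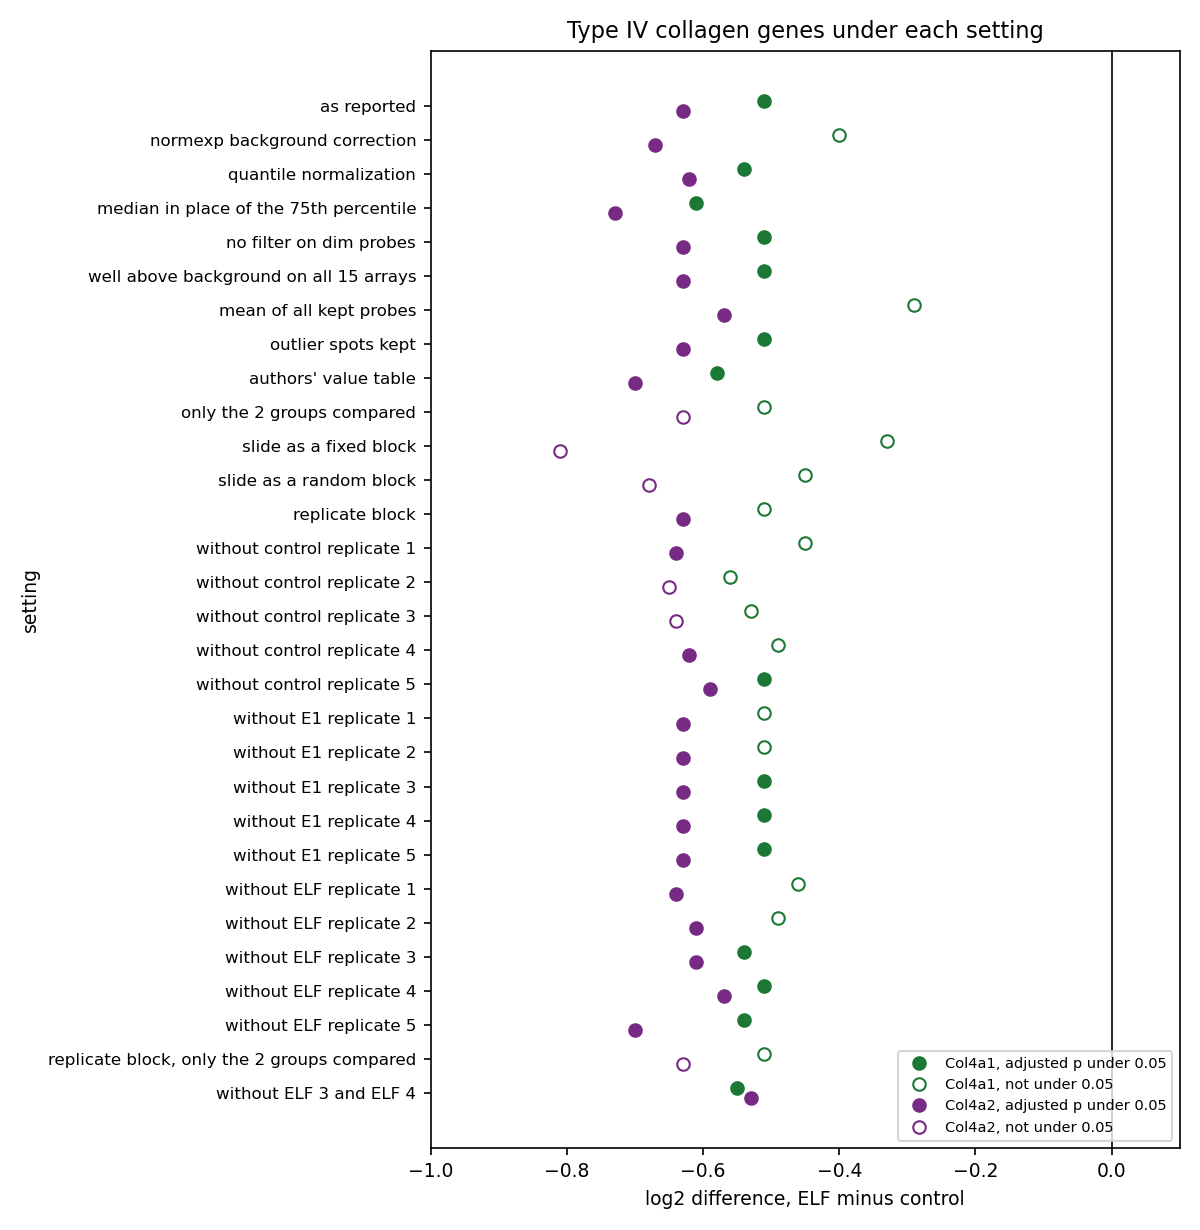
Difference between ELF and control in log2 intensity (horizontal axis) of Col4a1 and Col4a2 under each processing setting (vertical axis), with markers that show whether the adjusted p was under 0.05. All values are below 0, from -0.61 to -0.29 for Col4a1 and from -0.81 to -0.53 for Col4a2.

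Col6a1 and Col6a2 encode chains of type VI collagen, which forms beaded microfibrils around fibroblasts, and neither was called. Col6a2 read -2.98, -3.29, -3.02, -2.82 and -2.58 in control, -2.43, -2.84, -3.09, -2.60 and -2.44 in E1, and -2.44, -1.79, -2.84, -2.38 and -2.22 in ELF. ELF 2 was the highest of all 15 arrays, and ELF 3 overlapped with control. ELF differed from control by 0.61 (SE 0.19, 95% interval 0.20 to 1.01, adjusted p = 0.0898), and it missed the threshold. Col6a1 differed by -0.35 (adjusted p = 0.209). Col6a3, a further chain that is not among the 34, differed by -0.36 in ELF (adjusted p = 0.388) and by -1.14 in E1 (SE 0.25, adjusted p = 0.0694). The second Col6a2 probe differed by 0.18, and whether the chains differ from each other in their change was not tested.

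Col15a1 and Col18a1 encode the multiplexin collagens, which sit in basement membranes and hold cleavable fragments such as endostatin. Col15a1 read -4.38, -4.73, -4.74, -4.53 and -4.88 in control, -4.99, -4.86, -5.11, -5.07 and -5.40 in E1, and -5.17, -4.91, -5.51, -5.70 and -4.71 in ELF. Control 5 overlapped with E1 2, ELF 5 lay within the control range, and ELF 4 was the lowest array. The difference from control was -0.55 in ELF (SE 0.17, adjusted p = 0.0934) and -0.43 in E1 (SE 0.17, adjusted p = 0.301). Col18a1 differed by -0.41 in ELF (SE 0.20, adjusted p = 0.238).

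The genes of fibrillar collagens and of their processing were below control in both extinction groups, though none of the 8 was called by limma. On the brightest probes their median difference was -0.35 in E1 and -0.46 in ELF. Each time 8 of 8 were below 0, and both comparisons share the same control arrays. In E1 the other kept probes of these genes were above 0: 0.21 and 0.39 for Col1a1, 0.40 for Col3a1 and 0.34 for Col5a1. Within slide 2 E1 differed from control by 0.17 for Col1a2 and 0.03 for Pcolce. For the rest of the 8 it differed by -0.58 to -0.03. Over all genes the median was 0.04 in E1 and 0.10 in ELF, and 41.5% and 35.2% of genes were below 0. This is a description of the list, not a test of it.

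Col1a1, which encodes the major chain of type I collagen, read 0.87, 0.00, 0.33, -0.04 and -0.18 in control, 0.13, -0.17, -0.60, -0.46 and -0.19 in E1, and -0.52, -0.20, -0.39, -0.34 and 0.03 in ELF. Control 1 was the highest array, and both other groups overlapped with control 2, 4 and 5. The difference was -0.45 in E1 (SE 0.19, adjusted p = 0.326) and -0.48 in ELF (SE 0.19, adjusted p = 0.16). The array repeats this probe on 10 spots, whose median SD within an array was 0.10, whereas arrays of a group differed with an SD of 0.32. Its 2 other kept probes differed between ELF and control by -0.06 and 0.54.

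Col1a2, which encodes the second chain of type I collagen, read 1.84, 0.50, 1.20, 0.61 and 0.47 in control, 0.83, 0.65, 0.44, 0.26 and 0.81 in E1, and 0.12, 0.55, -0.10, 0.08 and 1.54 in ELF. Control 1 and ELF 5 were the 2 highest arrays, ELF 3 was the lowest, and the groups overlapped widely. ELF differed from control by -0.49 (SE 0.31, adjusted p = 0.362). The 95% interval of that difference, -1.16 to 0.18, holds 0 as well as a more than 2-fold lower level.

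Type V collagen starts the assembly of type I fibrils. Col5a1 read -0.76, -1.38, -1.18, -1.36 and -1.32 in control, -0.93, -1.48, -1.67, -1.98 and -1.83 in E1, and -1.92, -1.17, -1.88, -2.32 and -1.04 in ELF. ELF 4 was the lowest array and ELF 5 lay among the controls. On the brighter probe ELF differed from control by -0.47 (SE 0.25, adjusted p = 0.276), and the second probe, the one with the glycine codons above, differed by 0.47 (adjusted p = 0.216). Col5a2 differed by -0.45 (SE 0.14, adjusted p = 0.0869) and Col3a1, which encodes type III collagen, by -0.24 (SE 0.25, adjusted p = 0.571), while the second probe of Col3a1 differed by 0.43 (adjusted p = 0.43 in the fit of all kept probes).

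Of the genes that process fibrillar collagen, Serpinh1, the chaperone HSP47 that folds procollagen, differed by -0.38 in E1 (SE 0.13, adjusted p = 0.222) and by -0.39 in ELF (SE 0.13, adjusted p = 0.112). Its control arrays spanned 1.93 to 2.43 and its ELF arrays 1.69 to 1.96, so that control 5 overlapped with ELF. Pcolce, which enhances the removal of the procollagen propeptide, differed by -0.46 in ELF (adjusted p = 0.316) with ELF 3 at -0.32 and the 14 other arrays between 0.46 and 1.65. Lox, the enzyme that crosslinks collagen and elastin, differed by -0.17 (SE 0.57), and most E1 and some ELF arrays were not well above background.

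**Figure D3:**
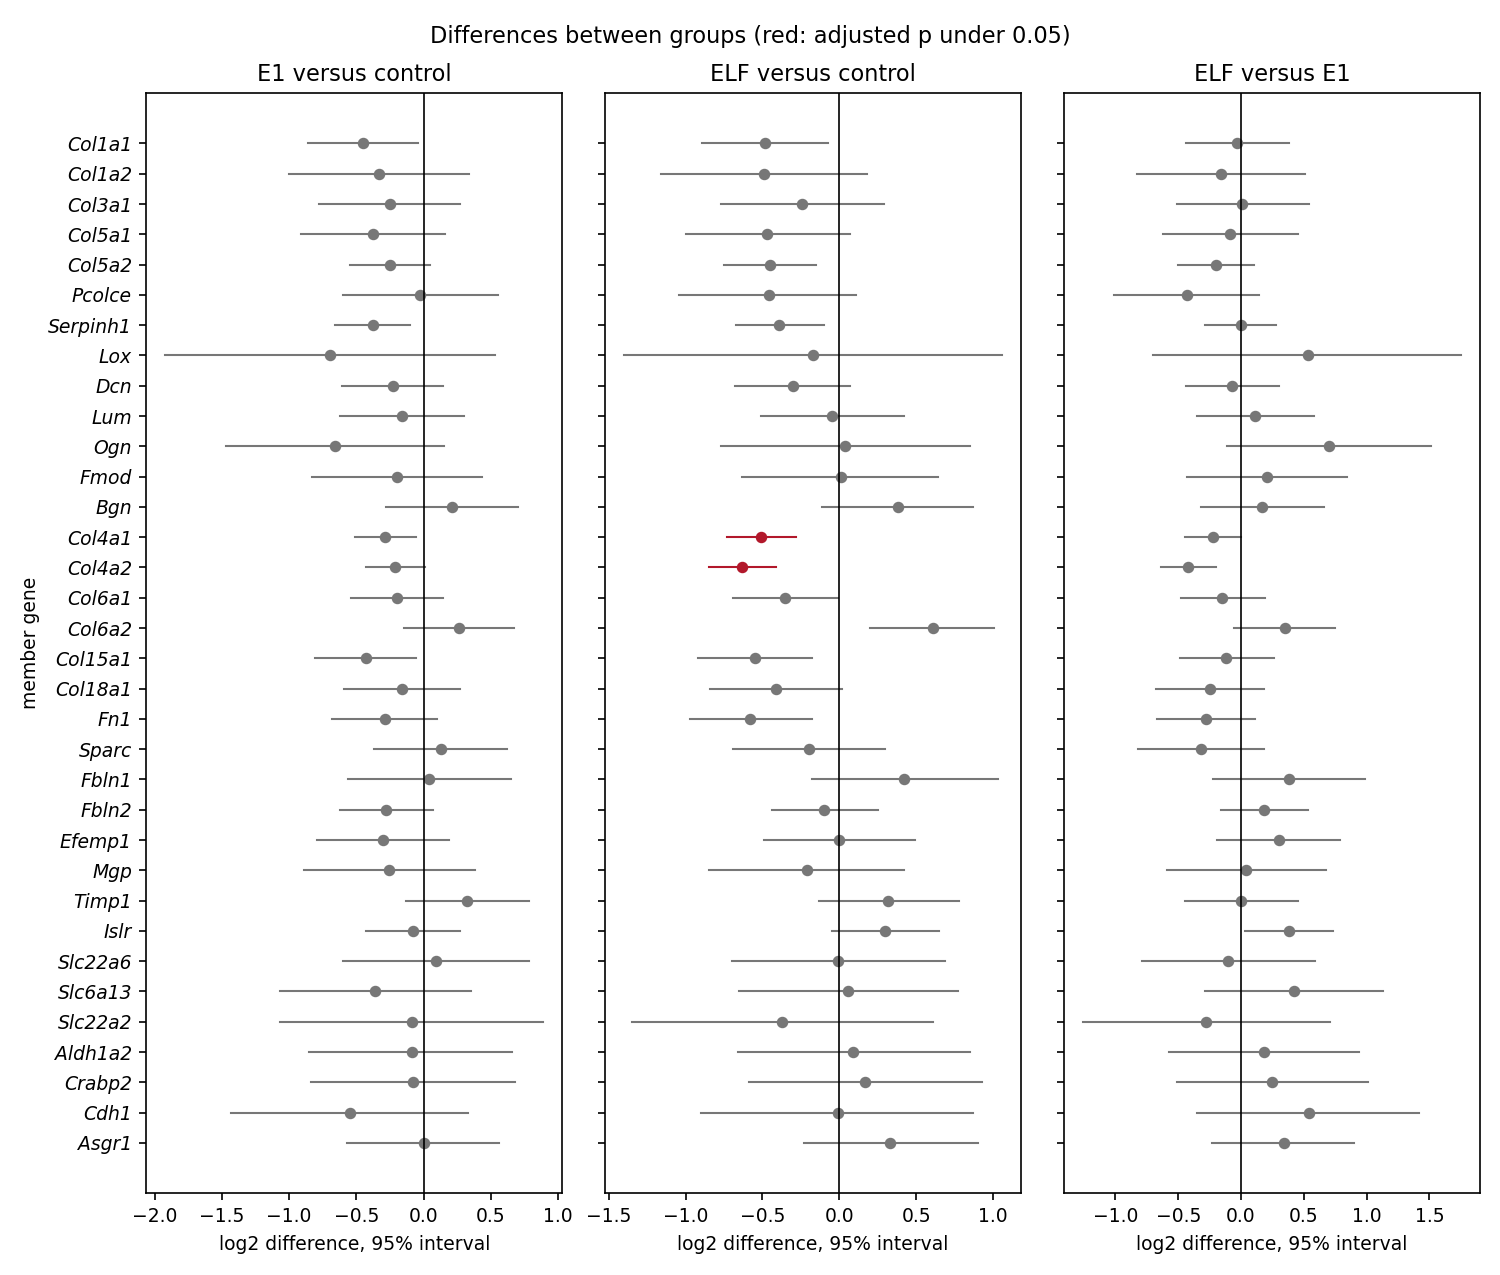
Difference in log2 intensity from control for each of the 34 genes, in E1 and in ELF, ordered by role, with 95% intervals of the limma fit. The type IV collagen chains in ELF are the 2 that passed the adjusted threshold. On their brightest probes, the 8 genes of fibrillar collagens and their processing all lie below 0 in both groups.

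The small leucine-rich proteoglycans, which bind collagen fibrils and set their spacing, held no called gene in any comparison. The median difference of the 5 was -0.20 in E1 and 0.01 in ELF. Dcn, which encodes decorin, read 3.27, 2.99, 3.33, 2.98 and 3.11 in control, 3.21, 2.99, 2.74, 2.43 and 3.15 in E1, and 3.11, 2.29, 2.94, 2.73 and 3.10 in ELF. Its lowest array was ELF 2, and its difference was -0.30 in ELF (SE 0.17, adjusted p = 0.307). Bgn, which encodes biglycan, differed by 0.38 (SE 0.23, adjusted p = 0.329), Lum, which encodes lumican, by -0.05, and Fmod, which encodes fibromodulin, by 0.01.

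Ogn, which encodes osteoglycin, read 0.60, -0.33, 0.51, 0.28 and -0.44 in control, -0.07, -0.16, -0.42, -0.29 and -1.76 in E1, and -0.11, 1.35, -0.55, -0.17 and 0.31 in ELF. E1 5 stood far below and ELF 2 far above the others. The difference was -0.66 in E1 (SE 0.38, adjusted p = 0.493) and 0.04 in ELF (SE 0.38, adjusted p = 0.963).

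Among the 8 matrix glycoproteins and regulators, Fn1, which encodes the fibronectin that links cells to collagen, came nearest to a call. It read -0.82, -1.59, -0.94, -1.34 and -1.21 in control, -1.28, -1.48, -1.43, -1.67 and -1.51 in E1, and -2.30, -1.51, -1.76, -1.95 and -1.28 in ELF. ELF 1 was the lowest array, while ELF 2 and ELF 5 lay within the control range. The difference was -0.58 in ELF (SE 0.18, 95% interval -0.97 to -0.18, adjusted p = 0.0929) and -0.29 in E1 (adjusted p = 0.535). Its 2 other kept probes, dimmer with mean levels of -3.50 and -5.39, differed between ELF and control by 0.11 and 0.27. The sign was thus not shared by the probes.

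Fibulins are glycoproteins that bridge fibronectin, laminin and elastic fibres. Fbln2 was the 1 gene of the 34 whose E1 arrays all lay below control, against 1.62% of all genes in that direction, and none lay above control throughout, against 2.08%. It read -0.98, -0.96, -1.10, -1.12 and -1.12 in control, -1.15, -1.24, -1.30, -1.30 and -1.69 in E1, and -1.11, -0.95, -1.50, -1.58 and -0.63 in ELF. E1 1 was only just below the lowest control arrays and ELF overlapped with both. The difference of E1 from control was -0.28 (SE 0.16, adjusted p = 0.5), not past the threshold.

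Fbln1 read -0.28, -0.72, -0.53, -0.60 and -0.49 in control, -0.33, -0.44, -0.72, -0.64 and -0.28 in E1, and -0.38, 1.26, -0.29, -0.77 and -0.31 in ELF. Apart from ELF 2, which stood alone, the groups overlapped fully. Its difference in ELF was 0.42 (SE 0.28, adjusted p = 0.377), and without ELF 2 it was 0.09 (adjusted p = 0.779). Efemp1, a fibulin relative, differed by 0.00 in ELF (SE 0.23) and by -0.30 in E1 (SE 0.23, adjusted p = 0.626).

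Sparc, a secreted collagen-binding protein also made by glia and endothelium, read 2.52, 2.53, 2.66, 2.53 and 2.56 in control, 2.97, 2.67, 2.66, 2.40 and 2.73 in E1, and 2.54, 3.23, 2.23, 1.45 and 2.38 in ELF. Control arrays were close together, while ELF held both the highest array, ELF 2, and the lowest, ELF 4. Between ELF and control it differed by -0.20 (SE 0.23, adjusted p = 0.63) and on its second probe by 0.25. On the second probe ELF 2 read 2.27 and ELF 4 read 2.53, within the range of the other arrays.

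Mgp, an inhibitor of matrix calcification, differed by -0.26 in E1 and -0.21 in ELF (SE 0.30 each). Timp1, an inhibitor of matrix metalloproteinases, differed by 0.32 in both E1 (SE 0.21, adjusted p = 0.556) and ELF (SE 0.21, adjusted p = 0.371). Islr, which encodes meflin, a surface protein of mesenchymal cells, differed by 0.30 in ELF (SE 0.16, adjusted p = 0.284).

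The 7 transporters, retinoid genes and surface proteins of the arachnoid and pia showed no called gene, with a median difference of -0.09 in E1 and 0.06 in ELF. Slc22a6 and Slc22a2 carry organic anions and cations, Slc6a13 carries GABA and taurine, Aldh1a2 makes retinoic acid, Crabp2 binds it, and Cdh1 is the E-cadherin of arachnoid barrier cells. Cdh1 spanned -3.52 to -1.95 in control, -4.19 to -2.78 in E1 and -3.65 to -1.50 in ELF, with control 1 and ELF 2 as the 2 highest arrays. Its 10 spots had a median SD of 0.11 within an array, against 0.70 between arrays of a group. Its difference was -0.55 in E1 (SE 0.41, adjusted p = 0.613) and -0.01 in ELF (SE 0.41, adjusted p = 0.99).

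Slc22a2 read -2.83, -3.81, -3.37, -3.21 and -3.95 in control, -3.29, -3.73, -3.83, -3.59 and -3.19 in E1, and -3.39, -2.94, -3.65, -5.97 and -3.05 in ELF. ELF 4 alone lay outside the range of the others. The difference of ELF from control was -0.37 (SE 0.46, adjusted p = 0.646), and without ELF 4 it was 0.17 (adjusted p = 0.594). Slc22a6 differed by -0.01, Slc6a13 by 0.06, Aldh1a2 by 0.09, Crabp2 by 0.17 and Asgr1, a subunit of the asialoglycoprotein receptor, by 0.33, with SE between 0.26 and 0.35.

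Slc47a1, an exporter of organic cations, has the name 1300013J15Rik on the array, matched through its transcript in the RefSeq gene table. It read 0.08, -0.94, -0.15, -0.20 and -0.63 in control, -0.83, -0.83, -1.25, -1.82 and -0.70 in E1, and -1.32, 0.66, -0.47, -0.94 and -0.25 in ELF. ELF 2 was the highest array and E1 4 the lowest. The difference from control was -0.72 in E1 (SE 0.33, adjusted p = 0.377) and -0.10 in ELF (SE 0.33, adjusted p = 0.881).

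One hour after the first extinction trial, limma called none of the 34 genes against control, where 0.188% of all genes were called (0.134% higher and 0.0536% lower). At an unadjusted p under 0.05, 4 genes were lower (Col1a1, Serpinh1, Col4a1 and Col15a1) and 0 higher, against 4.08% and 9.01% of all genes. The median difference was -0.22, with 28 of the 34 below 0 (82.4%), whereas over all genes the median was 0.04 and 41.5% were below 0. Without control 1 the median was -0.09 with 23 below 0, and without control 2 it was -0.28 with 30 below 0. With the mean of all kept probes it was -0.12 with 25 below 0. Markers of other tissues were lower in E1 as well: the median difference was -0.61 for 15 endothelial genes, with 14 below 0 and 3 called lower, among them Cldn5 (-0.94, adjusted p = 0.02). Of 14 choroid plexus genes 13 were below 0 with a median of -0.26, and limma called none, with 0 at an unadjusted p under 0.05. Their part in the E1 difference was not tested. Within slide 2, the only one with both groups, the median of the 34 genes was -0.04 with 20 below 0 (58.8%), beside -0.04 and 59.4% for all genes.

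Deviations of same-numbered control and E1 arrays correlated at 0.142 to 0.299, and the main fit held no replicate block. With the replicate number as a block in a fit of only these 10 arrays, Col15a1 was called lower (-0.43, adjusted p = 0.0275) and Timp1 higher (0.32, adjusted p = 0.0299). That fit called 2.84% of all genes lower and 9.21% higher, and with the block in the fit of all 15 arrays none of the 34 was called.

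In ELF, 22 of the 34 genes were below control (64.7%) with a median of -0.18, against 35.2% of all genes and a median of 0.10. At an unadjusted p under 0.05, 8 were lower and 1 higher, against 7.38% and 15.6% of all genes. Without control 1 the median of the 34 genes was -0.06 with 19 below 0. Other arrays moved it the other way: it was -0.27 with 27 below 0 without control 2, and -0.32 with 28 below 0 without ELF 2. In those fits the all-gene median was 0.09 and 0.04. The difference also depended on the scaling and on the probes. With each array set to its median, the all-gene median moved from 0.10 to 0.00. That of the 34 genes moved to -0.28 with 27 below 0. With the mean of all kept probes the median of the 34 genes was -0.01 with 18 below 0, beside 0.10 for all genes. With normexp background correction the median of the 34 genes was -0.10 with 21 below 0. Quantile normalization and the authors' deposited value table added lower calls for Col5a2, Col15a1 and Fn1, and the table also for Serpinh1.

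Leaving out ELF 3 and ELF 4, an alternative chosen after seeing the data, changed the list as a whole. The median of the 34 genes became 0.14 with 14 below 0, and the calls over all genes became 9281 higher (35.5%) and 1387 lower (5.31%). The ELF arrays that remain all lie on slide 4, which holds no other group, so that slide and ELF cannot be told apart in that fit. Bgn, Col6a2, Timp1 and Crabp2 were then called higher, beside the 2 type IV chains lower. Without ELF 4 alone, the median was 0.02, and Bgn (0.59, adjusted p = 0.0418) and Col6a2 (0.62, adjusted p = 0.0493) were called higher, where that fit called 16.9% of all genes higher and 2.75% lower.

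Between ELF and E1, limma called none of the 34 genes, where 0.00766% of all genes were called higher and 0 lower. At an unadjusted p under 0.05, Islr was higher (0.38, adjusted p = 0.49) and Col4a2 lower, against 5.65% of all genes higher and 3.99% lower. No gene's groups were free of overlap, against 1.1% of all genes higher and 0.944% lower. The median difference was 0.01 with 17 of 34 below 0 (50%), beside 0.05 and 39.6% for all genes. Within slide 3 the median was -0.24 with 27 below 0 (79.4%), beside -0.18 and 67.2% for all genes.

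As tissue content, the 34 genes varied more between arrays of a group than the median gene did. Control arrays had a median SD of 0.32 over the 34 genes, E1 arrays of 0.28 and ELF arrays of 0.52, against 0.17, 0.17 and 0.31 over all genes. ELF had a wider spread than control for 28 of the 34 genes (82.4%), near the 82.9% of all genes. Set relative to each gene's mean over the 15 arrays, the mean of the 34 was 0.49, -0.23, 0.25, 0.11 and -0.06 on control 1 to 5, 0.13, -0.08, -0.28, -0.23 and 0.03 on E1 1 to 5, and -0.17, 0.58, -0.32, -0.50 and 0.28 on ELF 1 to 5. ELF 2 and control 1 were the highest arrays and ELF 4 the lowest, and the 3 groups overlapped.

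**Figure D4:**
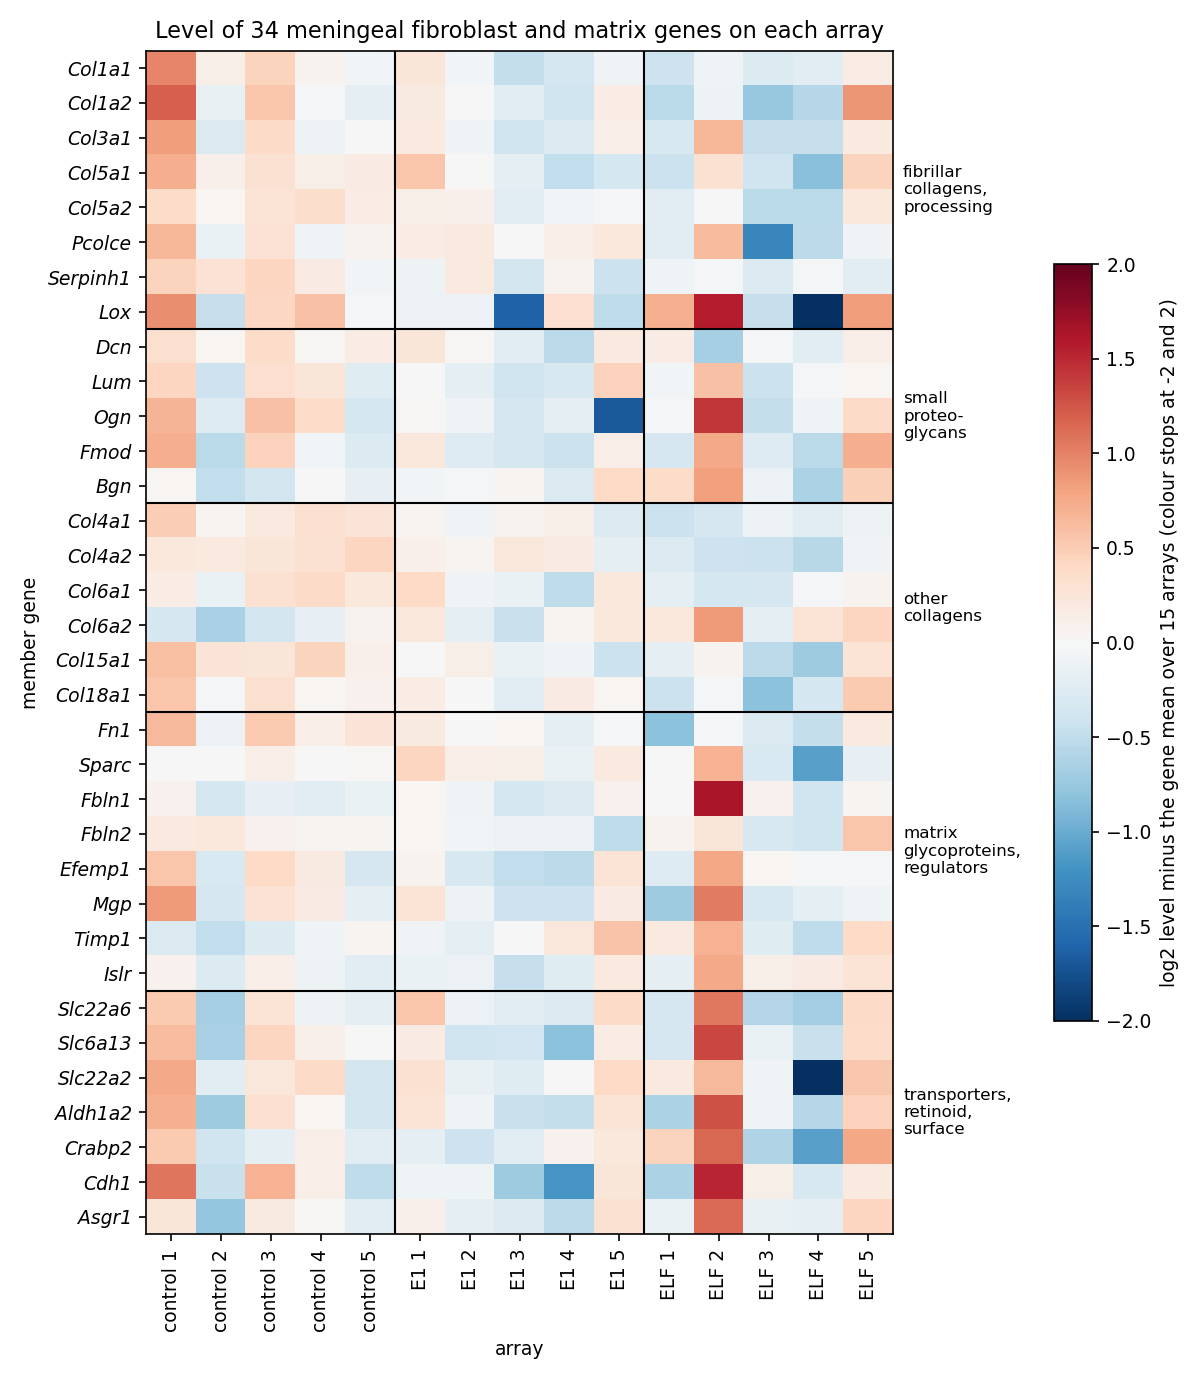
Deviation of each of the 34 genes from its own mean over the 15 arrays (log2, colour) on each array (columns), with genes ordered by role (rows). Control 1 and ELF 2 are high across most genes, ELF 4 is low across most, and the type IV chains are low on all ELF arrays.

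Control 1 was the highest of the 15 arrays for 12 of the 34 genes, whereas it was highest for 8.38% of all genes, and after quantile normalization the figures were 12 and 9.03%. ELF 2 was highest for 18 genes, but it was also highest for 46.4% of all genes, and after quantile normalization for 18 and 32.7%. ELF 4 was lowest for 12 of the 34 genes, but it was also lowest for 32.5% of all genes, and after quantile normalization for 6 genes and 17.1% of all genes. The roles were not equally high on ELF 2: the mean deviation there was 1.16 for transporters, retinoid genes and surface proteins and -0.03 for the network collagens. On ELF 4 the transporter set was lowest, at -0.81.

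Other tissue markers varied between arrays too. The mean deviation of the 14 choroid plexus genes was 0.20 to 0.76 on the control arrays and -0.09 to 0.58 in E1. It was -0.03, -0.22, -2.99, -0.12 and -0.23 on ELF 1 to 5. This mean was lower on every ELF array than on any control array, and far lowest on ELF 3. Taken singly, 4 of the 14 genes had every ELF array below every control array, beside 2.23% of all genes. Limma called none of the 14 in ELF against control, 10 were lower and 0 higher at an unadjusted p under 0.05, and their median difference was -1.21 with 14 of 14 below 0. Ttr, the transthyretin of choroid epithelium, read -1.81 on ELF 3 against 3.35 to 4.70 elsewhere. On that array the 34 genes stood at -0.32. The mean of the blood genes was highest on control 2, at 1.23, where the 34 genes stood at -0.23. The blood genes did not all peak there. Alas2 read 1.82 on control 2 and -2.24 to -0.41 elsewhere, but Hbb-b1 read 5.04 on it and 5.32 on control 4 and E1 5. Astrocyte genes stayed between -0.11 and 0.19 and microglia genes between -0.20 and 0.18. Oligodendrocyte genes ran from -0.25 to 0.46, highest on E1 5. Thalamus and habenula genes ran from -0.22 to 0.40, highest on E1 3. The part of these tissues in the differences above was not tested.

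**Figure D5:**
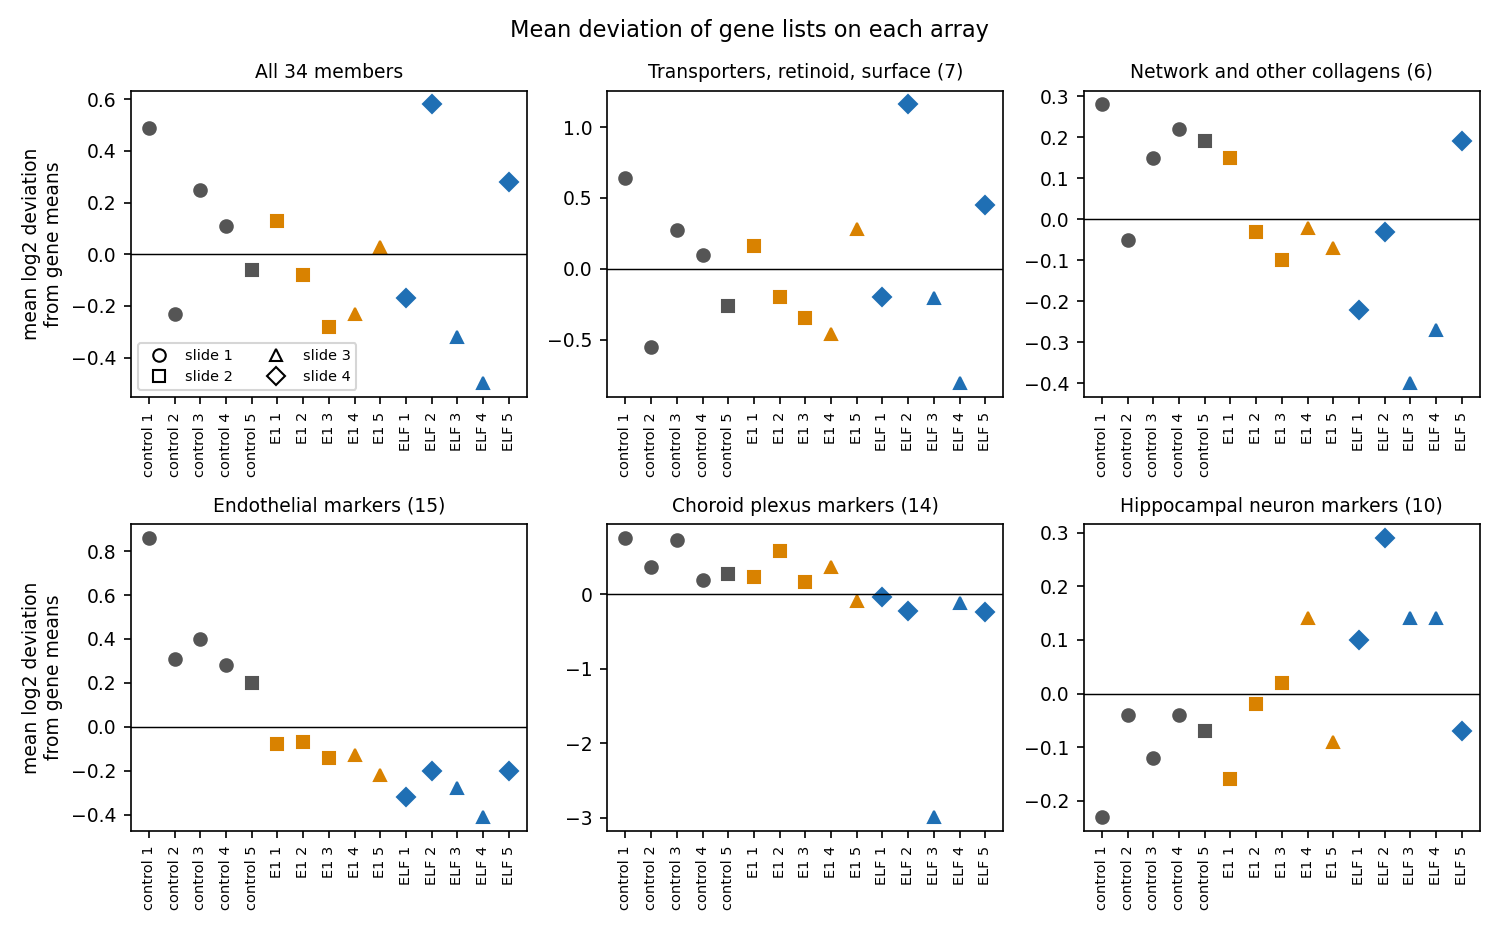
Mean deviation (log2) of gene lists from the gene means over the 15 arrays, 1 point per array in control, E1 and ELF. The lists are the 34 genes, their transporter and network collagen roles, and the endothelial, choroid plexus and hippocampal neuron markers. The 34 meningeal and matrix genes run from -0.50 to 0.58 with overlapping groups, whereas the endothelial genes of both E1 (-0.22 to -0.07) and ELF (-0.41 to -0.20) lie below those of control (0.20 to 0.86). The choroid plexus genes of ELF (-2.99 to -0.03) also lie below those of control (0.20 to 0.76).

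Other genes of the same pathways, none of them among the 34, were read from 5 lists with 113 measured genes. In ELF against control limma called 1 of them higher and 2 lower, and none in E1 against control or ELF against E1. At an unadjusted p under 0.05 the counts were 8 higher and 23 lower in ELF against control, 7 and 15 in E1 against control, and 5 and 9 in ELF against E1. These are 7.08% and 20.4%, 6.19% and 13.3%, and 4.42% and 7.96% of the 113 genes, beside 15.6% and 7.38%, 9.01% and 4.08%, and 5.65% and 3.99% of all genes. Of 17 other collagens and of 17 genes of matrix remodelling and TGF-beta signalling none was called.

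Of 20 genes of collagen modification 1 was called in ELF, Loxl4, an enzyme related to Lox. It read -5.60, -5.67, -5.68, -5.27 and -4.10 in control, -4.22, -4.20, -4.20, -3.92 and -4.20 in E1, and -4.05, -3.97, -4.26, -4.67 and -3.93 in ELF. Control 5, the 1 control array on slide 2, lay with the extinction groups and apart from control 1 to 4. Loxl4 rose in ELF by 1.09 (SE 0.26, adjusted p = 0.0467). Within slide 2 the difference of E1 from control was -0.10, and with slide as a fixed block that of ELF from control was -0.51 (adjusted p = 0.241).

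Of 33 other matrix genes 1 was called lower in ELF, Lama5, a laminin chain of vascular and meningeal basement membranes. It read -0.31, -0.80, -0.63, -0.97 and -1.12 in control, -1.14, -0.88, -1.23, -1.05 and -1.25 in E1, and -1.48, -1.12, -1.99, -1.66 and -1.25 in ELF. ELF 2 equalled control 5 to the second decimal, and ELF 3 was the lowest array. Lama5 fell by 0.73 in ELF (SE 0.17, adjusted p = 0.0477). The call was lost with slide as a fixed block (-0.63, adjusted p = 0.249) or a random block (adjusted p = 0.999), with the replicate block (adjusted p = 0.0709) and with only the 2 groups compared (adjusted p = 0.156).

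Of 26 other meningeal genes 1 was called lower in ELF, Igf2, a growth factor of the meninges and choroid plexus. It read 4.04, 3.49, 4.06, 3.48 and 3.32 in control, 3.60, 3.58, 3.07, 3.29 and 3.29 in E1, and 2.89, 3.40, 2.13, 2.81 and 2.68 in ELF. ELF 2 overlapped with control, and ELF 3, the array with the low choroid plexus genes, was the lowest. Igf2 fell by 0.90 in ELF (SE 0.21, adjusted p = 0.0477). The call was lost with slide as a fixed block (-0.73, adjusted p = 0.353) or a random block (adjusted p = 0.999), with the replicate block (adjusted p = 0.0661) and with only the 2 groups compared (adjusted p = 0.153). Ptgds, the prostaglandin D synthase of arachnoid and choroid plexus, differed by -0.15 (adjusted p = 0.517). When each array was left out in turn of the 10 compared, Igf2 and Lama5 each passed in 3 fits, those without control 5, ELF 2 or ELF 4, and Loxl4 in 2, those without control 5 or ELF 4. Igf2 ranged from -1.05 to -0.73, Lama5 from -0.83 to -0.61 and Loxl4 from 0.98 to 1.38 in these fits, with adjusted p up to 0.144 for Igf2. The E1 arrays also enter the estimate of the spread. Leaving out any 1 of them likewise lost the calls of Igf2, Lama5 and Loxl4 (adjusted p from 0.0554 to 0.0693).

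Where a gene had several kept probes, they did not always share a sign. The 34 genes held 16 further kept probes, of 13 genes. In ELF against control 10 of the 16 had the sign of the probe used and 6 the opposite sign, and in E1 against control 8 and 8. The values above are therefore those of the brightest probe, and no exon or UTR annotation of the probes was used here.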

How the data were processed

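The deposited files are, per the file headers, Agilent Feature Extraction output, 1 per array, with a mean, a background and a processed intensity for each of 45018 spots. The processed intensity had been background-subtracted by that software, per the file headers. The value table deposited by the authors is on a log2 scale (array medians 8.68 to 8.92, Pearson's r across spots at least 0.996 with log2 of the mean intensity), and how its arrays were normalized to each other is not given. Feature Extraction and limma are the tools in the submitters' processing notes.

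The 1639 control spots and outlier spots were left out, log2 of the processed intensity was set relative to each array's 75th percentile, and spots were averaged to 41174 probes. The 38457 probes well above background on at least 5 arrays were kept, and the brightest probe by mean over 15 arrays stood for each of 26117 gene names. Groups came from the sample labels and the test between them was limma 3.58.1 (R 4.3.3), tested on simulated data. Array number and signal over background limit precision. Gene names are those of the array design.

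The 34 genes, their roles and the other lists were chosen with earlier results of these data known. All 34 are named. Values per array are given for called genes, for the 6 next largest differences of ELF from control and for genes with 1 array apart by Dixon's test. Dcn was added after its values were seen. From other lists, called genes, Igf2, Ptgds and a few defining markers are named.

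Replicate numbers come from the sample titles, and the labels do not say that they pair mice. Deviations from the group means of same-numbered arrays correlated at 0.142 to 0.299 for E1 and control, over 0.1 in every pair. Arrays with different numbers were not compared in this way, so these values cannot show that the numbers pair mice. The main fit was therefore left unpaired, and the replicate number entered as a block only in alternative fits. For ELF and control the correlations ran from -0.435 to 0.311, and for ELF and E1 from -0.400 to 0.170. Alternatives covered background correction, scaling, the filter, probes per gene, outlier spots, the value table, the groups in the fit, slide and replicate blocks, and each array left out.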

Additional observations from a re-analysis of the deposited data

Results flagged for a closer look

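In 5 cases 1 array stood apart from the 4 others of its group by Dixon's test, among 102 such tests over the 34 genes, and chance gives about 1 in 20. Ogn was at -1.76 on E1 5, where the next lowest E1 array was at -0.42. Fbln2 was at -1.69 on the same array, with the next lowest at -1.30. Each of these genes was read from 1 probe. Fbln1 was at 1.26 on ELF 2, with the next highest ELF array at -0.29, and its second probe was also highest there, at -0.57 against -1.48 on the next ELF array. Slc22a2 was at -5.97 on ELF 4, with the next lowest at -3.65. Sparc was at 2.66 on control 3, with the next highest control array at 2.56, a gap of little size that stands out because the control arrays were so close.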

How the results depend on the processing

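Against the 2 lower and 0 higher calls of ELF against control, the lower count of the 34 genes, with the share of all genes called lower in the same fit, was 1 (0.593%) with normexp background correction, 5 (2.5%) with quantile normalization, 5 (1.87%) with the array median in place of the 75th percentile, 1 (0.571%) with the mean of all kept probes and 6 (3.09%) with the authors' deposited value table. It was 0 with only the 2 groups compared and 0 with slide as a random block, fits that called 0 of all genes, and 0 (0.237%) with slide as a fixed block. With the replicate block it was 1 (0.123%) in the fit of all arrays and 0 with only the 2 groups compared (0 of all genes). The labels do not say whether the replicate numbers pair ELF with control. Leaving out 1 array at a time gave 0 to 3 lower and 0 to 2 higher calls, and leaving out ELF 3 and ELF 4 gave 4 higher calls (35.5% of all genes). For E1 against control, 1 gene was called higher and 1 lower with the replicate block and only the 2 groups compared. For ELF against E1, 4 of the 34 were called lower with slide as a fixed block, where 16.6% of all genes were, and without ELF 3 and ELF 4 there were 4 higher (24.1%) and 1 lower (1.65%). A sign turned with a call in either fit for 2 genes, both with slide as a fixed block: Loxl4 in ELF against control (-0.51, adjusted p = 0.241) and Crabp2 in ELF against E1 (-0.99, adjusted p = 0.0372). Without a call in either fit, that block also turned the sign of Loxl4 in E1 against control (-0.10) and of genes such as Timp1 (-0.92), Crabp2 (-1.06) and Bgn (-0.27) in ELF against control. In all it turned 14 of 34 signs in E1 against control, 8 in ELF against control and 14 in ELF against E1. The replicate block changed no other call of the 34 genes beyond those given here and in the report, apart from Col4a1, whose adjusted p became 0.0604 in the fit of all arrays. The causes were not tested. The fit with fewer arrays has fewer degrees of freedom, a slide block leaves few arrays within a slide, and dim genes such as Lox are limited by signal over background.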

Other observations

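Among the other meningeal genes, picked here after their values were seen, some transcription factors of meningeal fibroblasts were highest on control 1 or ELF 2, as many of the 34 genes were, and others were not. Foxc1 read -0.30 on control 1 and between -1.78 and -0.63 on all others, and Tbx18 read -2.74 on control 1 and between -4.54 and -3.26 on all others. Foxc2 was highest on ELF 2, at -0.94, and next highest on control 1, at -1.25. Spp1, a secreted phosphoprotein, read 2.23 on ELF 2 and 1.26 on control 1. Zic1 had another order: control 1 and control 2 were highest, at 3.15 each, while ELF 2 was at 1.13. Osr1 was highest on ELF 2, at -1.24, but at -2.20 on control 1, and Twist1 was highest on E1 5, at -2.92, with ELF 2 at -3.35.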
